A study of Mus musculus with 4 samples.

Results

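ATAC-seq peaks at 5 chromatin regulator genes were described in mouse CD8+ T cells given a guide RNA against Prdm12 or a control guide. The genes were Prdm2, Prdm9 and Prdm10, which belong to the same family as Prdm12, Eed of Polycomb repressive complex 2, and Kmt2d of the MLL (mixed lineage leukaemia) methyltransferase complexes. A peak was taken when it overlapped the GRCm38 RefSeq span of one of these genes or lay within 10000 bases of it. This gave 6 of the 3187 peaks in the deposited table, 1 each for Prdm2, Prdm9, Prdm10 and Eed, and 2 for Kmt2d. The genes were picked because the table held a peak for them, that is, on reads of these same libraries. Their levels and their having a peak are therefore descriptions. Of the 6 peaks 4 were tested, and none of them passed the test for a difference between the guides. The 2 peaks of Kmt2d had too few reads to be tested. Eed had more scaled reads in both sgPrdm12 libraries than in either sgNTC library (fold change 1.32, 95% interval 0.875 to 2.01, n = 2 libraries per group). This pattern was seen at 16.4% of all tested peaks. Prdm2, Prdm9 and Prdm10 differed in opposite directions in the 2 batches. Of all tested peaks, 25.8% were higher in sgPrdm12 in batch 1 and lower in batch 2, and 24.7% had the opposite order. Both peaks in the Kmt2d window lay at neighbouring genes.

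PRDM proteins carry a PR domain, which is related to the SET domain of histone methyltransferases, and most of them carry zinc fingers that bind DNA. Some members methylate histones themselves, while others act by recruiting other enzymes. Polycomb repressive complex 2 methylates lysine 27 of histone H3 and helps to keep genes silent, and the MLL complexes methylate lysine 4 of histone H3 at enhancers and promoters. In T cells these opposing systems are known to shape differentiation. Prdm12 itself has been studied mainly in sensory neurons.

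The libraries came from spleen CD8+ T cells of OTI:Cas9 mice, isolated with magnetic beads, cultured, and electroporated with Cas9 protein bound to guide RNA (300 pmol). OT-I cells carry a transgenic receptor for an ovalbumin peptide. The guide was sgPrdm12 in 2 libraries, whose genotype is labelled Prdm12-ko, and sgNTC in 2 libraries, labelled Prdm12-wt. The design text describes the controls as non-edited, although sgNTC appears among the electroporated guides in the protocol. Replicate 1 of each group was labelled batch 1 and replicate 2 batch 2. The labels do not state the age or number of mice, nor whether replicates were separate animals or cultures, so the spread behind each p-value may be technical.

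The 4 libraries held 20427 to 58068 reads in the listed peaks, and the lowest total belonged to sgPrdm12 replicate 2. That library also had the smallest share of reads close to protein-coding genes' ends (within 1000 bases), 64.8%, against 70.0% to 74.2% in the other libraries. No peak lay within 10000 bases of Prdm12 itself (chromosome 2, 31635026 to 31655795), so these values do not check the edit. Of 15 CD8+ T cell marker genes, 2 had a peak in the window, Cd3g and Trac, and both peaks lay outside the gene span. The Cd3g peak lay 3668 bases outside, near Ube4a, and the Trac peak 3645 bases outside. Their values lay in opposite directions. Per 10000 reads of the tested peaks, Cd3g held 5.14 and 5.29 in the sgNTC libraries against 4.08 and 2.40, and Trac held 2.57 and 2.77 against 6.62 and 8.80. The log2 fold changes, -0.62 ± 0.73 and 1.47 ± 0.70, did not pass (edgeR adjusted p = 1.00 and 0.93). Cd8a and Cd8b1 had none in this table, which does not show that they were closed. The B cell, myeloid and NK cell lists had no peak at 8, 10 and 5 genes, the CD4 T cell list had 1 at Zbtb7b and the erythroid list had 1 at Tfrc. At Tfrc the sgNTC libraries held 0 reads (replicate 1) and 13 (replicate 2) and the sgPrdm12 libraries 3 and 0. At Zbtb7b they held 2, 11, 3 and 9 reads in the same order. Scaled per 10000 reads of the tested peaks, Zbtb7b held 1.03 and 2.77 in sgNTC against 1.53 and 7.20 in sgPrdm12.

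The position of each peak differed between the genes. Eed (chromosome 7, 89954654 to 89980976, minus strand) encodes the subunit of Polycomb repressive complex 2 that binds methylated lysine 27. Its peak (chr7:89980486-89981486) was 1001 bases wide and held the gene's RefSeq start at 89980976. Prdm9 (chromosome 17, 15543072 to 15564374, minus strand) encodes the histone methyltransferase that places meiotic recombination in mouse germ cells. Its peak (chr17:15564237-15564678), 442 bases wide, held 1 of its 2 RefSeq starts, at 15564354. Prdm10 (chromosome 9, 31276110 to 31381731, plus strand) encodes a zinc finger transcription factor of the family. Its peak (chr9:31280295-31280881), 587 bases wide, lay 4185 bases inside the span and held 1 of 2 RefSeq starts, at 31280549.

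The peaks of Prdm2 and Kmt2d were placed differently. Prdm2 (chromosome 4, 143107391 to 143212769) encodes a PR domain protein with methyltransferase activity that binds the retinoblastoma protein. Its peak (chr4:143161847-143162572), 726 bases wide, lay in the middle of the span, with its centre 52.0% of the way from the low-coordinate end. Whether it was exonic or intronic was not determined, and Prdm2 was not in the table of starts. Kmt2d (chromosome 15, 98831669 to 98874077, minus strand) encodes a lysine 4 methyltransferase known from enhancers. Its first peak (chr15:98831339-98831763), 425 bases wide, lay across the end of the span opposite the Kmt2d start, 39654 bases from it. That peak held the RefSeq start of Prkag1, a subunit of the AMP-activated protein kinase, at 98831508, 161 bases from the Kmt2d span. The second peak (chr15:98881397-98881651), 255 bases wide, lay 7320 bases outside the Kmt2d span and overlapped the facing ends of Rhebl1, a small GTPase gene, and Dhh, which encodes a hedgehog ligand. Of all 3187 peaks 40.5% held a RefSeq start. The nearest peaks beyond the window were farther off than this second Kmt2d peak, at 59933 bases from Kmt2d, 63741 from Prdm10, 78633 from Eed, 599487 from Prdm9 and 1560846 from Prdm2.

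**Figure D1:**
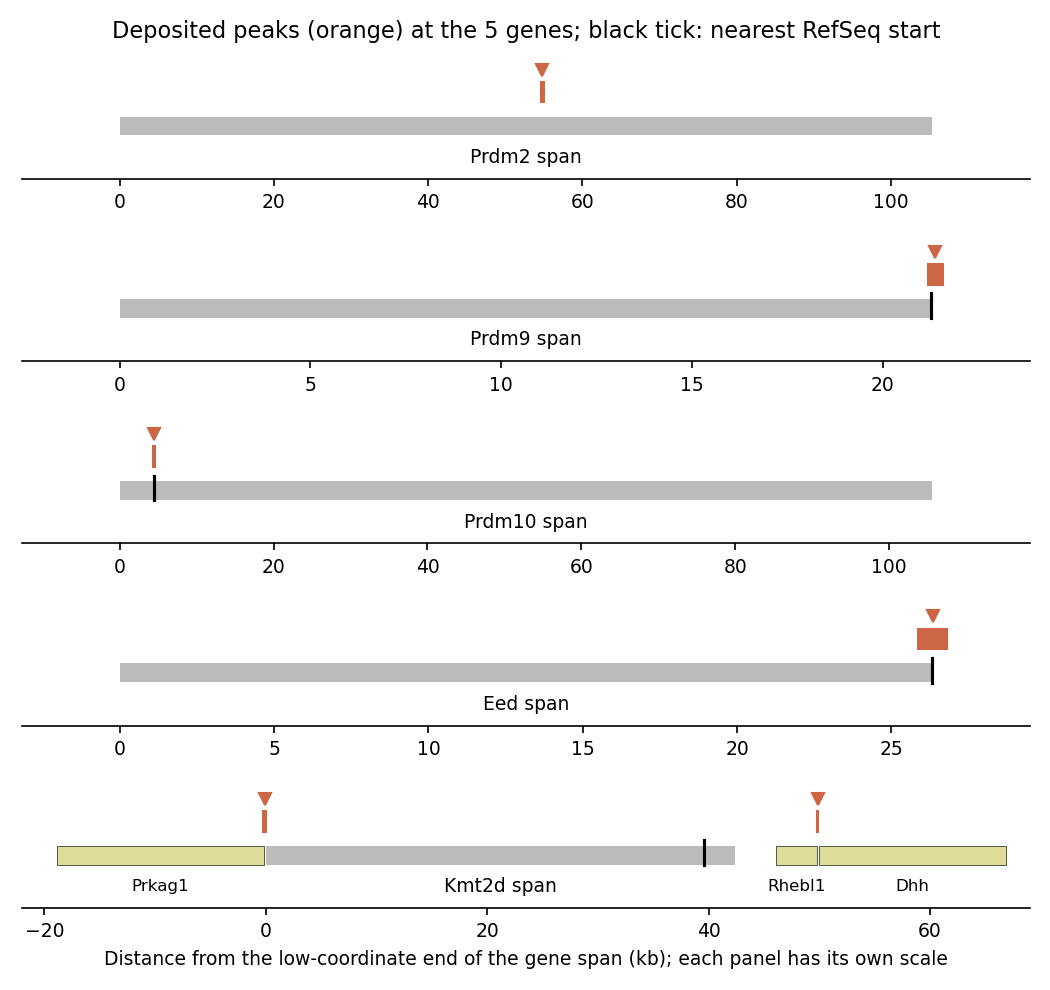
Map of the 6 peaks on the 5 genes, with distance in kb from the low-coordinate end of each gene span on the horizontal axis. Grey bars are gene spans, yellow bars are neighbouring genes, orange bars with arrowheads are peaks and black ticks are the nearest RefSeq starts. The Eed, Prdm9 and Prdm10 peaks sit at a start, the Prdm2 peak sits inside the span and both Kmt2d peaks sit at neighbouring genes.

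The promoter windows under the peaks are shown to give the DNA whose accessibility was counted. Each runs 5′ to 3′ on the gene's strand from 250 bases before to 50 bases after the RefSeq start (GRCm38.p6) and lies wholly inside its peak. The windows are chr7:89980927-89981226 for Eed and chr17:15564305-15564604 for Prdm9, both on the minus strand, chr9:31280299-31280598 for Prdm10 on the plus strand, and chr15:98831459-98831758 for Prkag1 on the minus strand. Capitals mark matches to the motifs searched.
Eed: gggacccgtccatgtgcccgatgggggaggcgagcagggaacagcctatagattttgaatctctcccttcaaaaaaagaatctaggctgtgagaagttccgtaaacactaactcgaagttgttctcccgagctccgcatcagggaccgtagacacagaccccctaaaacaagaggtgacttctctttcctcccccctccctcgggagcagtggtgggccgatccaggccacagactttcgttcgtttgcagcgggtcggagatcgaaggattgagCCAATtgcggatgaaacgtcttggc
Prdm9: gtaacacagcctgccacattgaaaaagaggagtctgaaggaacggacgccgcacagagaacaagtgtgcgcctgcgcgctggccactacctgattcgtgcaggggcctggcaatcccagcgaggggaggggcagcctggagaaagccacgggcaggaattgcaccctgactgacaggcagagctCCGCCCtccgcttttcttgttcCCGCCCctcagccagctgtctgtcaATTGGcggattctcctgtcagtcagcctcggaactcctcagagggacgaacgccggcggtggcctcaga
Prdm10: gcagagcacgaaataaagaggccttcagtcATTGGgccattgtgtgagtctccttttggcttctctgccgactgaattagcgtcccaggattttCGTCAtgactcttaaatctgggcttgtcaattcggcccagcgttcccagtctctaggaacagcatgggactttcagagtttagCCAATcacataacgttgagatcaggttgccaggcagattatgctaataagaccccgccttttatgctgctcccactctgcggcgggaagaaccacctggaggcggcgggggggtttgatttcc
Prkag1: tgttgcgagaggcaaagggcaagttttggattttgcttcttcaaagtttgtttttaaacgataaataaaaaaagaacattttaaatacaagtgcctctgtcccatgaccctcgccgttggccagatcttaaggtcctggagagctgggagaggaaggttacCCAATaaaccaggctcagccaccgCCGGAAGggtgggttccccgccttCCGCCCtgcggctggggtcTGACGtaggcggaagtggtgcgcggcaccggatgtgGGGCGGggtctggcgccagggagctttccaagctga

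Short motifs were searched on both strands, and no matches overlapped each other in these windows. The CCAAT box (CCAAT) had a match in every one of the 4 windows, with 2 in Prdm10 and 1 in each of the others. In Eed the match lay 25 bases after the start. CCAAT was in 37.4% of all 32851 windows and in 49.2% of the 1676 windows whose start lay in a peak. The GC box (GGGCGG) had 2 matches in Prdm9 and 2 in Prkag1, and none in the Eed and Prdm10 windows. It was in 35.7% of all windows and in 75.7% of those at a peak.

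The core of the cyclic AMP response element (TGACG) had 1 match each in Prdm10 and Prkag1, and was in 20.8% of all windows and 44.3% of those at a peak. The ETS motif (CCGGAAG) had 1 match, in Prkag1, and was in 8.86% and 28.0%. The TATA box (TATAAA) was in 13.6% of all windows and 4.00% of those at a peak, and had no match in the 4. The E box (CACGTG), in 7.15% and 12.1%, had none there either. The windows held 18 CpG dinucleotides in Prdm9, 17 in Eed, 16 in Prkag1 and 12 in Prdm10. Windows at a peak had a median of 25 and all windows a median of 7. The Prdm10 count was above that of only 2.74% of windows at a peak. The G and C content was 61.7% in Prdm9, 54.7% in Eed and in Prkag1, and 51.7% in Prdm10, with medians of 62.7% at a peak and 52.7% over all windows.

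All 6 peaks had reads in all 4 libraries, from 1 to 44 reads. Counts were scaled with TMM and are given per 10000 reads of the tested peaks. Eed was the tallest of the 6, with a mean scaled count above 97.8% of all peaks. It was followed by Prdm10 (88.1%), Prdm2 (81.2%), Prdm9 (74.8%), the Kmt2d and Prkag1 peak (63.2%) and the Rhebl1 and Dhh peak (38.2%). The Eed peak was also wider than 99.6% of all peaks. Per kb of peak the order was different. The scaled count per 10000 reads and per kb, over the 4 libraries, was 13.9 ± 4.28 (SD, n = 4) for Prdm10, 13.4 ± 5.42 for Prdm9 and 12.6 ± 2.29 for Eed. It was 11.0 ± 3.90 for the Kmt2d and Prkag1 peak, 10.8 ± 5.16 for the Rhebl1 and Dhh peak and 9.43 ± 3.53 for Prdm2. Each neighbour in this order differed from the next by less than its SD, and the median of all peaks was 9.51.

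Eed, the Polycomb subunit, had 21 reads in replicate 1 and 44 in replicate 2 of sgNTC, against 31 and 16 in those of sgPrdm12. Scaled per 10000 reads this was 10.8 and 11.1 in sgNTC, and 15.8 and 12.8 in sgPrdm12. Both sgPrdm12 libraries were above both sgNTC libraries, so the groups did not overlap. The fold change was 1.32 (95% interval 0.875 to 2.01), or 0.41 ± 0.29 on the log2 scale (SE), and it did not pass (quasi-likelihood test of edgeR, Benjamini-Hochberg adjusted over all tested peaks, adjusted p = 0.97). Of the 1125 tested peaks, 16.4% had groups that did not overlap with sgPrdm12 higher, so this pattern was common in the table. The ratio was 1.46 in batch 1 (95% interval 0.814 to 2.68) and 1.15 in batch 2 (0.608 to 2.09).

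The within-batch intervals here and below are exact binomial intervals on 1 library per group and cover counting error only. The batch values have no test, and with 2 libraries per group an exact two-sided permutation test of a single value could not go below 0.333.

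Prdm9, the meiotic methyltransferase, had 7 reads in replicate 1 and 24 in replicate 2 of sgNTC, against 18 and 6 in those of sgPrdm12. Scaled per 10000 reads this was 3.60 and 6.04, and 9.17 and 4.80. The highest and the second lowest library were both sgPrdm12, so the groups overlapped. The log2 fold change was 0.51 ± 0.44 (edgeR adjusted p = 0.97), with an interval on the fold from 0.759 to 2.68. The ratio was 2.55 in batch 1 (1.01 to 7.21) and 0.794 in batch 2 (0.265 to 1.99), in opposite directions. Batch 1 of Prdm9 was the only 1 of 12 member intervals that did not include 1, and the intervals are not adjusted for their number. The share of such intervals over all peaks was not examined. Without sgPrdm12 replicate 1 the log2 fold change was -0.080 ± 0.75, and without sgNTC replicate 2 it was 0.97 ± 0.69.

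Prdm10, the zinc finger factor, had 15 reads in replicate 1 and 34 in replicate 2 of sgNTC, against 10 and 14 in those of sgPrdm12. Scaled per 10000 reads this was 7.72 and 8.56, and 5.09 and 11.2. The sgPrdm12 libraries lay on either side of the sgNTC libraries, which were close together. The group means were 8.14 ± 0.60 and 8.15 ± 4.31 (SD, n = 2), and the log2 fold change, which gives more weight to the deeper libraries, was -0.12 ± 0.42 (edgeR adjusted p = 1.00). The interval on the fold was 0.505 to 1.68. The ratio was 0.660 in batch 1 (0.265 to 1.57) and 1.31 in batch 2 (0.648 to 2.50). The log2 fold change turned to 0.45 ± 0.50 without sgPrdm12 replicate 1 and moved to -0.74 ± 0.51 without sgPrdm12 replicate 2. Under the batch block it was -0.02 ± 0.41, and without sgNTC replicate 2 it was -0.06 ± 0.56.

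Prdm2, the retinoblastoma-binding member, had 14 reads in replicate 1 and 31 in replicate 2 of sgNTC, against 18 and 4 in those of sgPrdm12. Scaled per 10000 reads this was 7.20 and 7.81, and 9.17 and 3.20. As at Prdm10, the sgPrdm12 libraries lay on either side of the sgNTC libraries, but here replicate 1 was the higher one. The log2 fold change was -0.17 ± 0.41 (edgeR adjusted p = 1.00), with an interval on the fold from 0.496 to 1.60. The ratio was 1.27 in batch 1 (0.598 to 2.77) and 0.410 in batch 2 (0.105 to 1.16). Without sgPrdm12 replicate 2, which held 4 reads, the log2 fold change turned to 0.22 ± 0.48, and without sgPrdm12 replicate 1 it was -1.22 ± 0.69.

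The 2 peaks taken for Kmt2d did not reach the count filter. The Kmt2d and Prkag1 peak held 5 reads in replicate 1 and 19 in replicate 2 of sgNTC, against 13 and 6 in those of sgPrdm12. Scaled per 10000 reads this was 2.57 and 4.785, and 6.62 and 4.798, so the groups did not overlap but sgNTC replicate 2 and sgPrdm12 replicate 2 were almost equal. The ratio was 2.57 in batch 1 (0.861 to 9.22) and 1.00 in batch 2 (0.328 to 2.61). Over all 3187 peaks, 15.5% had groups that did not overlap with sgPrdm12 higher. When all peaks were fitted without the filter its log2 fold change was 0.52 ± 0.55 (edgeR adjusted p = 0.89).

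The Rhebl1 and Dhh peak held 6 reads in replicate 1 and 14 in replicate 2 of sgNTC, against 7 and 1 in those of sgPrdm12. Scaled per 10000 reads this was 3.09 and 3.53, and 3.57 and 0.800. A single library, sgPrdm12 replicate 2, was low, and the other 3 were close. The ratio was 1.16 in batch 1 (0.332 to 4.16) and 0.227 in batch 2 (0.00536 to 1.49), and the log2 fold change without the filter was -0.51 ± 0.81 (edgeR adjusted p = 0.89). The 2 peaks thus give the ends of neighbouring genes and no value at the Kmt2d start.

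**Figure D2:**
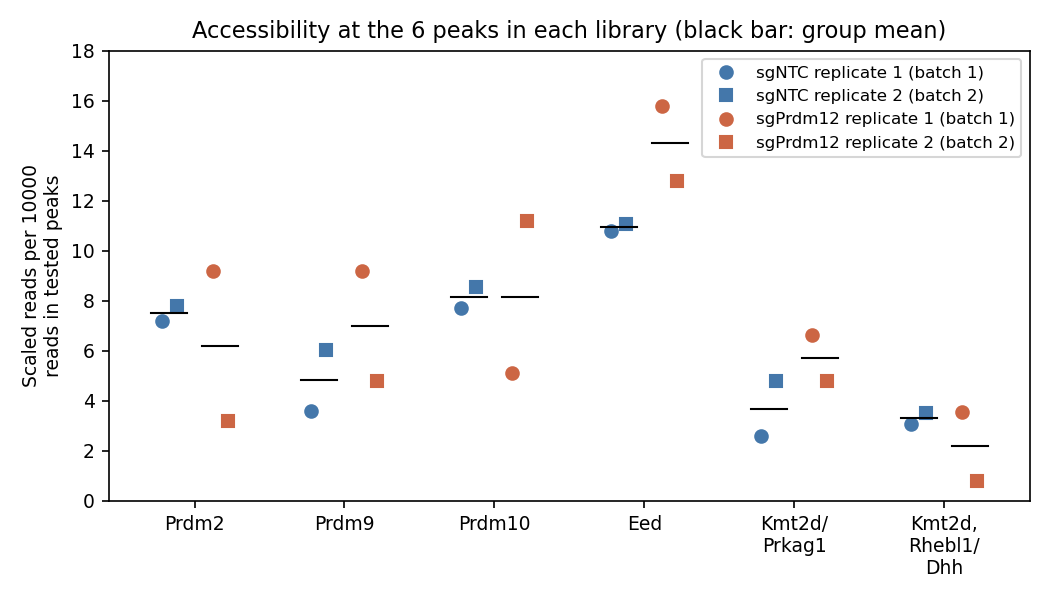
Scaled reads per 10000 reads in tested peaks (vertical axis) at the 6 peaks in each library; circles are replicate 1 in batch 1, squares replicate 2 in batch 2, and black bars are the means of 2 libraries. At Eed both sgPrdm12 points (15.8 and 12.8) lie above both sgNTC points, as at 16.4% of all tested peaks. At Prdm2, Prdm9 and Prdm10 the sgPrdm12 points lie apart from each other and the groups overlap.

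Of the 4 tested peaks of the set, 0 were called higher and 0 lower at an adjusted p of 0.05, as were 0 of the 1125 tested peaks (0%). At an unadjusted p of 0.05 edgeR gave 0 of the 4 and 57 of 1125 (5.07%), and DESeq2 called 0 of 3186 peaks after adjustment. The log2 fold change was above 0 at 2 of the 4 peaks and at 52.1% of all tested peaks. The median log2 fold change was 0.14 over the 4 and 0.02 over all tested peaks, and the median standard error was 0.42 and 0.40. These values do not show that accessibility was equal, since the intervals at single peaks reached as far as 0.496 of the sgNTC level at Prdm2 and 2.68 of it at Prdm9.

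**Figure D3:**
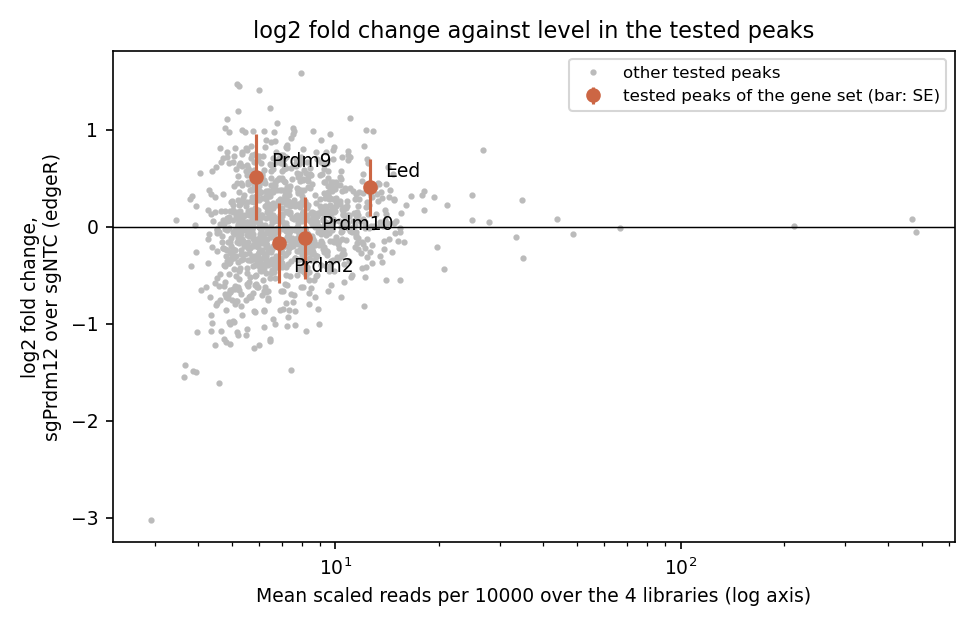
edgeR log2 fold change of sgPrdm12 over sgNTC (vertical axis) against the mean scaled reads per 10000 (horizontal, log axis) for the 1125 tested peaks. The 4 tested peaks of the set (orange, bars are standard errors) lie within the cloud of the other peaks, with Prdm9 at 0.51, Eed at 0.41, Prdm10 at -0.12 and Prdm2 at -0.17.

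The batches disagreed in direction at 4 of the 6 peaks. Prdm2, Prdm9 and the Rhebl1 and Dhh peak had more scaled reads in sgPrdm12 than in sgNTC in batch 1 and fewer in batch 2. That pattern was seen at 22.1% of all peaks and at 25.8% of tested peaks. Prdm10 had the opposite order, as did 24.7% of tested peaks, so disagreement between the batches was common in the table. Eed and the Kmt2d and Prkag1 peak were higher in sgPrdm12 in both batches, like 22.0% of all peaks, but for the Kmt2d and Prkag1 peak the batch 2 ratio was 1.00 and turned to 0.898, with overlapping groups, when counts were divided by plain library totals. With plain totals the Eed ratio in batch 2 was 1.03. The tested peaks held 62.4% of the reads of sgPrdm12 replicate 2 and 67.2% to 67.7% of those of the other libraries, and the part of this in the batch 2 ratios was not tested.

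**Figure D4:**
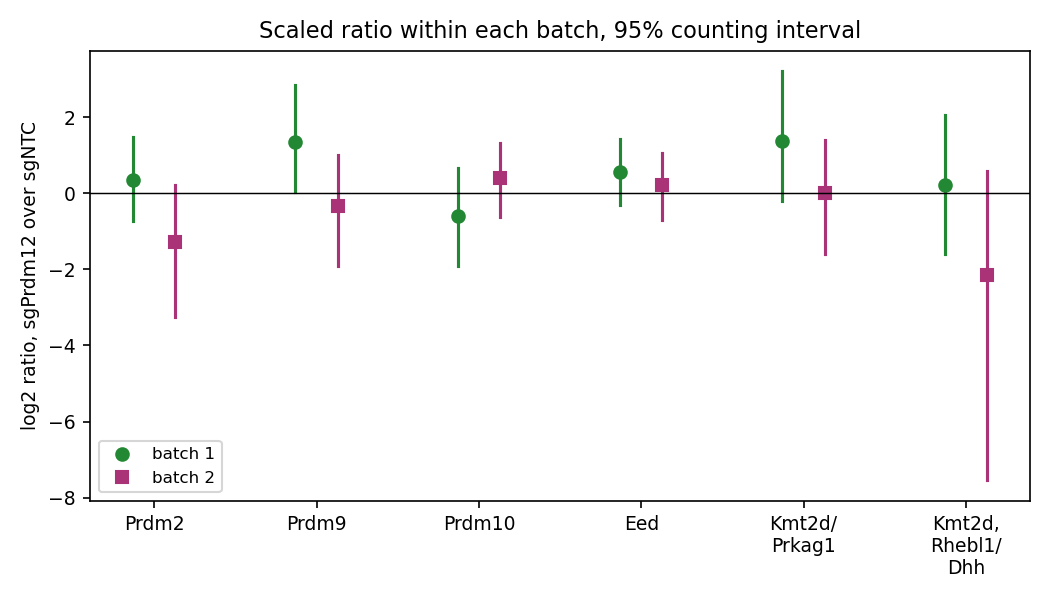
The log2 ratio of scaled counts, sgPrdm12 over sgNTC (vertical axis), within batch 1 (circles) and batch 2 (squares) for the 6 peaks; lines are 95% exact intervals for counting error with 1 library per group. The Prdm9 ratio in batch 1 (2.55, on a linear scale) is the only one whose interval does not include no difference. The intervals are not adjusted for their number. The Rhebl1 and Dhh peak in batch 2 has the widest interval.

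In the authors' deposited table the log2 difference, sgPrdm12 minus sgNTC, was 0.21 at Eed, 0.31 at Prdm9, -0.28 at Prdm10 and -0.60 at Prdm2. In the authors' deposited table it was 0.46 at the Kmt2d and Prkag1 peak and -0.95 at the Rhebl1 and Dhh peak. The standard errors in the authors' deposited table ran from 0.63 at Eed to 1.34 at the Rhebl1 and Dhh peak, and each of the 6 differences was smaller than its standard error.

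Related genes were examined in 5 lists, which held 70 genes beside the 5 described above. Of these 70 genes, 21 (30.0%) had a peak in the window, against 18.4% of all protein-coding genes. The lists were chosen with earlier results of these data known, so these shares are descriptions and no enrichment was tested. Some of the peaks lay at neighbouring genes, and span length was not matched. The 24 peaks of the 21 genes included 11 that were tested, with 0 higher and 0 lower calls, 7 log2 fold changes above 0 and a median of 0.07. The counts and medians given below for single lists include Prdm2, Prdm9, Prdm10, Eed and Kmt2d, which were picked for having a peak. In the PRDM family 4 of 15 genes had a peak, Prdm2, Prdm4, Prdm9 and Prdm10. The Prdm4 peak, inside the span 171 bases from its end, held 6 reads in replicate 1 and 15 in replicate 2 of sgNTC, against 4 and 2 in those of sgPrdm12. Both sgPrdm12 libraries were lower after scaling (2.04 and 1.60 against 3.09 and 3.78 per 10000 reads), as at 17.2% of all peaks, and the peak was below the filter. Prdm1, the family member known for effector T cell differentiation, had no peak in this table.

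Polycomb repressive complex 2 had peaks at 5 of 12 genes, Eed, Rbbp4, Rbbp7, Phf1 and Phf19, with 3 tested peaks and a median log2 fold change of 0.07. Rbbp4, a histone-binding subunit, had a log2 fold change of 0.07 ± 0.35 at a peak over its start, shared with Zbtb8os. Phf1, an accessory subunit, had 2 peaks, and the tested one, 1445 bases outside the span, had -0.04 ± 0.33. The edgeR adjusted p was 1.00 for both. The peak at the start of Phf1 itself, near Kifc5b, held 5 reads in replicate 1 and 18 in replicate 2 of sgNTC, against 9 and 6 in those of sgPrdm12, below the filter. The groups did not overlap there (2.57 and 4.53 against 4.58 and 4.80 per 10000 reads), a pattern, with sgPrdm12 higher, seen at 15.5% of all peaks. Without the filter the log2 fold change at this peak was 0.25 (edgeR adjusted p = 0.91). Rbbp7, the close relative of Rbbp4, held 4 reads in replicate 1 and 13 in replicate 2 of sgNTC, and 0 in both sgPrdm12 libraries. The peak held reads in the sgNTC libraries alone, so its being listed and its difference may rest on the same reads. A floor of 3 reads over the sgPrdm12 group, put in place of 0, lay 3.08-fold below the scaled sgNTC level. That value is a bound and not the size of the difference. This takes the 17 sgNTC reads as exact and leaves out their counting error and spread. Both sgPrdm12 libraries were below both sgNTC libraries at 17.2% of all peaks. The counts were below the filter, with no test in the main fit and an edgeR adjusted p of 0.89 without the filter. The Phf19 peak held 4 and 25 reads in the sgNTC libraries against 8 and 3, and was not tested.

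Polycomb repressive complex 1 had peaks in the window of 4 of 19 genes, Cbx2, Cbx8, Pcgf1 and Pcgf3, with 2 tested peaks. Pcgf1, a subunit of variant complexes, had 0.23 ± 0.40, and the peak beside Cbx8, which also lay within the window of Cbx2, had -0.23 ± 0.57 (edgeR adjusted p = 1.00 for both). Without sgPrdm12 replicate 2 these were 0.53 and 0.13. The 2 peaks near Pcgf3 held at most 9 reads in any library. Of the H3K9 and H3K36 methyltransferases 3 of 11 had a peak, and 0 were tested. Suv39h2, a lysine 9 methyltransferase, held 4 reads in replicate 1 and 9 in replicate 2 of sgNTC, against 11 and 6 in those of sgPrdm12 at its start, shared with Dclre1c. Ash1l held 8 and 17 reads against 12 and 7 at a peak 6 bases outside its span, near Dap3. Nsd3 held 7 and 26 reads against 3 and 7. Neither the Ash1l nor the Nsd3 peak held a listed start of its gene. Scaled per 10000 reads, Suv39h2 held 2.06 and 2.27 against 5.60 and 4.80, and Ash1l 4.12 and 4.28 against 6.11 and 5.60. The groups did not overlap at Suv39h2 and Ash1l, a pattern, with sgPrdm12 higher, seen at 15.5% of all peaks. Nsd3 held 3.60 and 6.55 against 1.53 and 5.60, and its groups overlapped. The edgeR adjusted p without the filter was 0.89 for each. Ehmt1 and Ehmt2, which encode lysine 9 methyltransferases, had no peak in this table.

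The MLL and SET1 complexes had peaks in the window of 10 of 18 genes, with 7 tested peaks, 0 calls, and a median log2 fold change of 0.09. At 3 of the 10 genes a peak held a listed start of the gene itself. The peak of Men1, the gene of the MLL adaptor menin, lay across its end at Map4k2 and held 6 reads in replicate 1 and 10 in replicate 2 of sgNTC, against 13 and 11 in those of sgPrdm12. The groups did not overlap, a pattern, with sgPrdm12 higher, seen at 16.4% of tested peaks. The log2 fold change of 1.45 ± 0.70 did not pass (edgeR adjusted p = 0.93). Wdr5, a core subunit shared by all these complexes, had 0.09 ± 0.38 at its start and 0.72 ± 0.32 at a peak 3416 bases outside its span (edgeR adjusted p = 1.00 and 0.93). At this outer peak too the groups did not overlap, with sgPrdm12 higher. Kmt2b had -0.42 ± 0.34 at a peak 5071 bases outside its span, at Psenen and U2af1l4 (edgeR adjusted p = 0.97). That value was -0.02 without sgPrdm12 replicate 2, which held 6 reads there.

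Setd1a had 0.14 ± 0.44, Paxip1, a partner of Kmt2d and Kmt2c, had 0.05 ± 0.41 and Hcfc1 had -0.26 ± 0.37 (edgeR adjusted p = 1.00 for all). Without sgPrdm12 replicate 2 these were 0.62, -0.48 and -0.61. The sign turned without that library at 4 of the 11 tested peaks of the other listed genes, at Paxip1, at the Cbx8 and Cbx2 peak, at Rbbp4 (-0.10) and at the Wdr5 start (-0.02). Rbbp4 and the Wdr5 start had small values in the main fit (0.07 and 0.09). For these genes the other libraries were not examined in this way, nor was the share of such turns over all tested peaks. At Prdm9 and Prdm10 the sign turned without sgPrdm12 replicate 1 instead. The further peaks near Kmt2b, Ncoa6, Pagr1a and Wdr82 were below the filter, with 2 to 19 reads in a library. The Pagr1a peak lay 9869 bases outside its span, near Maz and Kif22, and the Ncoa6 peak 8589 bases outside, near Trp53inp2. The further Kmt2b peak lay 9113 bases outside its span, near Lin37. Of the 10 genes with a peak in the window, 7 had a peak within 1000 bases of an end of their span. Over all protein-coding genes, 4028 had a peak in the window and 2490 had one within 1000 bases of an end. The Kmt2d and Men1 peaks at an end held no listed start of these genes and lay at Prkag1 and Map4k2. Kmt2a and Kmt2c, the relatives of Kmt2d, and Kdm6a, a lysine 27 demethylase of the same complexes, had no peak in this table.

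**Figure D5:**
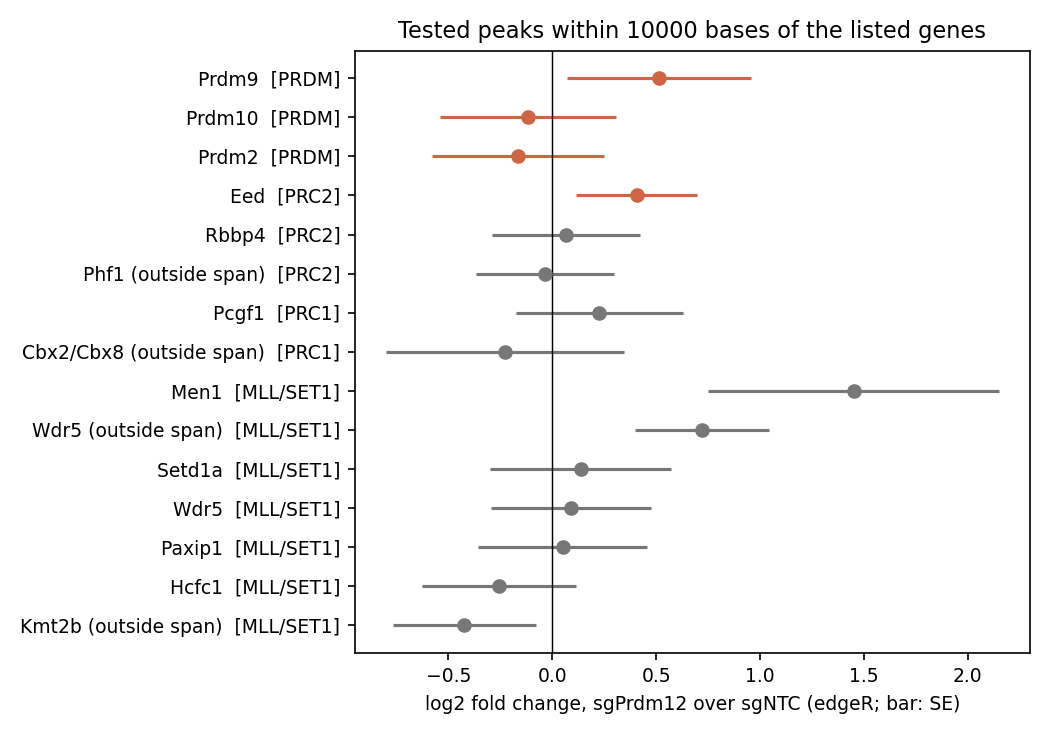
edgeR log2 fold change of sgPrdm12 over sgNTC (horizontal axis, bars are standard errors) for the 15 tested peaks within 10000 bases of a listed gene, grouped by complex. Peaks of the 5 genes are orange, others grey, and "outside span" marks peaks over 1000 bases outside the gene; 9 of the 15 lie above 0 and none was called.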

How the data were processed

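ATAC-seq libraries were 2 with sgPrdm12 and 2 with sgNTC. Per the submitters' processing notes the build was GRCm38 and tools included Bowtie2, MACS2 and DiffBind; how peaks were called and pooled is not given in the sources. The authors deposited whole-number read counts per peak, used here as raw counts. The authors also deposited log2 means, their log2 difference and its standard error, handled as a score, with unstated scaling. Totals were 28749 (replicate 1) and 58068 (replicate 2) reads for sgNTC, 29043 and 20427 for sgPrdm12; reads outside listed peaks were not analysed here.

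Counts were tested with edgeR 4.0.16 (R 4.3.3, quasi-likelihood, TMM, robust, group only). The filterByExpr function (minimum count 10) kept 1125 peaks, with Benjamini-Hochberg adjustment at 0.05; the fit was tested on simulated data. Standard errors are the log2 fold change over the square root of F. Scaled counts divide by TMM-adjusted reads in tested peaks. Gene spans, starts and promoters came from RefSeq (GRCm38.p6, no exons); 4 of the 5 genes had starts. The labels give same-numbered libraries a shared batch, which pairs them; deviations from group means correlated at 0.06 over 1125 peaks. Alternatives were other scalings, no filter, DESeq2 1.42.0, the batch block, each library left out, other windows, and 3 peaks beside Rn18s-rs5 left out. Genes, lists and motifs were chosen with earlier results of these data known. By rule, all peaks of the 5 genes and list genes with a peak were named; list genes without a peak were picked afterwards.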

Additional observations from a re-analysis of the deposited data

How the results depend on the processing

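No alternative changed a call: edgeR called 0 peaks in every setting and so did DESeq2, with 40 to 109 peaks at an unadjusted p of 0.05 in the edgeR alternatives and 28 with DESeq2. The number of peaks taken was 6 with the 10000 base window and 5 with 1000 bases or with overlap alone, which drops the Rhebl1 and Dhh peak. The log2 fold change of Eed stayed above 0 in all 10 alternatives (0.23 to 0.47). Leaving out each library gave 0.23 to 0.47 at Eed, -0.080 to 0.97 at Prdm9, -0.74 to 0.45 at Prdm10 and -1.22 to 0.22 at Prdm2. The sign turned at Prdm9 (-0.080) and Prdm10 (0.45) without sgPrdm12 replicate 1 and at Prdm2 (0.22) without sgPrdm12 replicate 2; each then rested on 1 sgPrdm12 library, assumed to vary like the others. With the batch as a replicate block, edgeR called 0 peaks and gave 0.38 at Eed, 0.51 at Prdm9, -0.02 at Prdm10 and -0.27 at Prdm2, and it changed no other call. With plain library totals the median log2 fold change of all tested peaks was -0.05, against 0.02 with TMM. Counts of 1 to 44 reads per peak limit what could be detected.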
